A study of Mus musculus with 19 samples.

Results

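The mouse SINE elements B1 and B2 were followed in mRNA-seq data of spermatogonia from *Dnmt3l* and *Pld6* mutant mice. SINE subfamilies were taken as every row whose class was given as SINE, which were 6 of the 259 retrotransposon subfamilies in the data. B1_Mm, B1_Mus1 and B1_Mus2 are the 3 B1 subfamilies, filed under the Alu family, and B2_Mm1a, B2_Mm1t and B2_Mm2 are the 3 B2 subfamilies. The class name alone set which rows these were, but the class was chosen with earlier results of these data known. Of the other 253 subfamilies, 19 were LINE L1 and 234 were LTR elements.

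B1 and B2 are short, non-coding retrotransposons. B1 derives from 7SL RNA and B2 from a transfer RNA, both carry an internal promoter for RNA polymerase III, and neither encodes a protein, so that their copying depends on enzymes of L1. Copies of both also lie within introns and untranslated regions of many genes, where they are transcribed by RNA polymerase II as part of a longer RNA. A read mapped to a B1 or B2 consensus therefore does not show which copy, or which kind of transcript, it came from.

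The 19 libraries were made from poly(A) RNA of EpCAM-positive spermatogonia, sorted from mouse testes on postnatal day 7 by the surface protein EpCAM. The *Dnmt3l* line had 2 wild-type (*Dnmt3l*+/+), 3 heterozygous (*Dnmt3l*+/-) and 3 KO (*Dnmt3l*-/-) libraries, and the *Pld6* line had 3 wild-type (*Pld6*+/+), 3 heterozygous (*Pld6*+/-) and 5 KO (*Pld6*-/-) libraries. Each library was labelled as a biological replicate, and both lines had been backcrossed to C57BL/6J. DNMT3L is a cofactor of the enzymes that set up DNA methylation in the male germline, and PLD6 (MitoPLD) is a mitochondrial protein needed for piRNA production. KO libraries were compared with the wild-type libraries of their own line, and the controls of both lines were compared with each other. The values covered retrotransposons only, so that neither the loss of *Dnmt3l* or *Pld6* transcripts nor the markers of spermatogonia and other testis cells were analysed here.

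Expression was given as RPM, the reads mapped to a subfamily scaled to the mapped reads of the library, which is not corrected for the length of the consensus. Levels were therefore compared between libraries for the same subfamily, and a ratio of 2 subfamilies was compared only with the same ratio in another library. The RPM summed over all 259 subfamilies ranged from 2103 to 14603 per library, or 0.210% to 1.46% of the total used for scaling. Read depth was unknown, so that no counting interval is given. *Pld6* heterozygous replicate 1 stood apart, with 159 subfamilies listed at 0 against 60 to 90 in the other 18 libraries. None of the 6 SINE subfamilies was listed at 0 in any library.

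For the tests, log2(RPM + 1) was fitted with limma over all 19 libraries. The 114 subfamilies that reached an RPM of 1 in 2 or more libraries were tested. All 6 SINE subfamilies passed this filter, and their lowest RPM in any library was 45.3. Two-sided p-values were adjusted over the 114 subfamilies within a comparison (Benjamini-Hochberg). A subfamily was called when its adjusted p was under 0.05. Differences are given on the log2(RPM + 1) scale with their standard error (SE), and group levels as mean RPM ± SD.

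All 6 SINE subfamilies were higher in the controls of the *Dnmt3l* line than in the controls of the *Pld6* line. The difference, averaged over wild-type and heterozygous mice, ran from 1.81-fold for B1_Mus1 to 2.85-fold for B2_Mm1t. These 6 were the only subfamilies called, 6 of 114 or 5.26%, and none of the 108 tested subfamilies outside SINE was. The line, and whatever else differed between the mice or libraries of the 2 lines, cannot be told apart, and the labels give no batch. In bulk libraries, fewer cells of a type and less RNA per cell cannot be told apart either.

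B2_Mm2 was at 255 and 189 RPM in the *Dnmt3l* wild-type libraries and at 235, 277 and 215 RPM in the heterozygous libraries. In the *Pld6* line it was at 113, 120.2 and 83.3 RPM in wild type and at 87.65, 89.1 and 94.8 RPM in heterozygotes. The lowest control of the *Dnmt3l* line was thus above the highest control of the *Pld6* line. The log2 difference was 1.23 (SE 0.16, adjusted p = 6.5e-05 from limma), or 2.35-fold.

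B2_Mm1t was at 504 and 368 RPM in *Dnmt3l* wild type and at 515, 678 and 400.4 RPM in *Dnmt3l* heterozygotes. It was at 237, 208 and 116 RPM in *Pld6* wild type and at 161, 154 and 143 RPM in *Pld6* heterozygotes. Again the controls of the lines did not overlap, and the log2 difference of 1.51 (SE 0.27, adjusted p = 0.00059 from limma) ranked first of all 114 subfamilies. B2_Mm1a was at 1289.6 and 969 RPM in *Dnmt3l* wild type and at 1079, 1343 and 1134 RPM in *Dnmt3l* heterozygotes. It was at 653, 488 and 226 RPM in *Pld6* wild type and at 519, 314 and 428 RPM in *Pld6* heterozygotes. The ranges did not meet, but the *Pld6* wild-type libraries differed 2.89-fold among themselves, and the SE was the widest of the 6. The log2 difference of B2_Mm1a was 1.47 (SE 0.35, adjusted p = 0.00883 from limma).

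The 3 B1 subfamilies were also higher in the controls of the *Dnmt3l* line. B1_Mm was at 235 and 139 RPM in *Dnmt3l* wild type and at 219.9, 232 and 168 RPM in *Dnmt3l* heterozygotes. In the *Pld6* line it was at 113, 110.1 and 63.7 RPM in wild type and at 65.1, 81.1 and 75.1 RPM in heterozygotes. Its log2 difference between the lines was 1.21 (SE 0.18, adjusted p = 0.00011 from limma). B1_Mus1 was at 164 and 118 RPM in *Dnmt3l* wild type and at 169.8, 172 and 135 RPM in *Dnmt3l* heterozygotes. It was at 93.6, 106 and 73.4 RPM in *Pld6* wild type and at 62.5, 83.2 and 77.3 RPM in *Pld6* heterozygotes. Its log2 difference of 0.86 (SE 0.13, adjusted p = 0.00014 from limma) was the lowest of the 6. B1_Mus2 was at 141 and 97.1 RPM in *Dnmt3l* wild type and at 140.1, 143 and 117 RPM in *Dnmt3l* heterozygotes. It was at 78.05, 83.6 and 53.4 RPM in *Pld6* wild type and at 45.3, 62.6 and 60.2 RPM in *Pld6* heterozygotes. Its log2 difference was 0.98 (SE 0.15, adjusted p = 0.00011 from limma), and its control ranges did not overlap either.

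**Figure D1:**
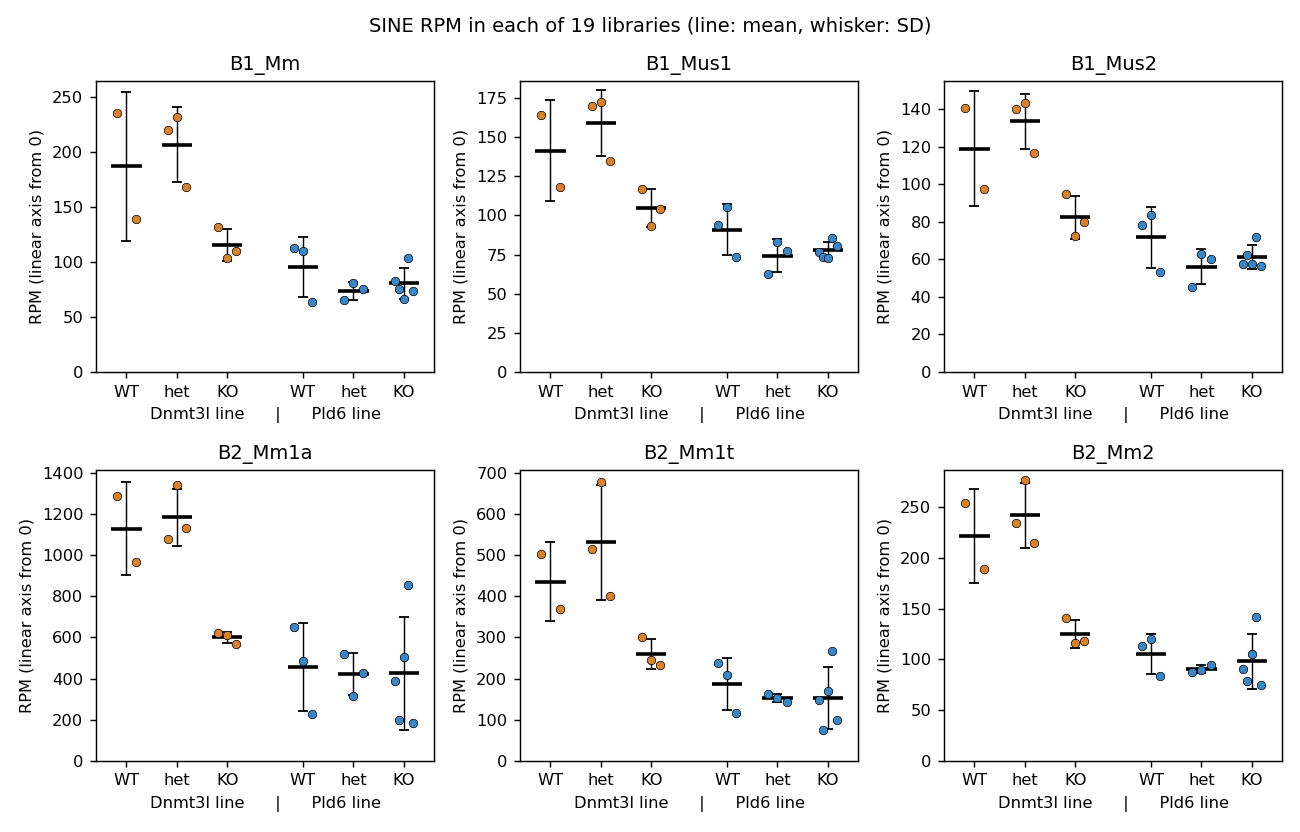
RPM of each SINE subfamily (y axis, linear from 0, a panel per subfamily) in the 19 libraries, grouped by genotype within the *Dnmt3l* line (orange) and the *Pld6* line (blue). Each point is a library, the horizontal line is the group mean and the whisker is ± 1 SD. In all 6 panels the *Dnmt3l* wild-type and heterozygous points lie above all *Pld6* wild-type and heterozygous points, and the *Dnmt3l* KO points lie below the *Dnmt3l* wild-type points.

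The control ranges of the lines did not overlap, with the *Dnmt3l* line higher, for 9 of the 114 subfamilies (7.89%), and 6 of these 9 were SINE. The other 3 were the LTR elements IAP1-MM_LTR, IAPLTR1_Mm and RLTR45-int. RLTR45-int had the largest difference outside SINE, 0.80 on the log2 scale, with an adjusted p of 0.0571 from limma. At an unadjusted p under 0.05 there were 11 subfamilies outside SINE. The median difference was 1.22 over the 6 SINE subfamilies and 0.15 over all 114. For the 18 tested L1 subfamilies it was 0.17, and none of them was called.

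The summed RPM of the 253 subfamilies outside SINE was 1514 ± 17.1 in *Dnmt3l* wild type (n = 2), 1457 ± 104 in *Dnmt3l* heterozygotes (n = 3), 1459 ± 216 in *Pld6* wild type (n = 3) and 1389 ± 269 in *Pld6* heterozygotes (n = 3). The summed SINE RPM in the same groups was 2234 ± 500.2, 2458 ± 349, 1007 ± 349 and 868 ± 78.8. SINE therefore made up 59.3% ± 5.17 of the summed retrotransposon RPM in *Dnmt3l* wild type and 40.3% ± 11.5 in *Pld6* wild type.

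The size and the calls of the line difference varied with the libraries compared, and whether it differed between genotypes was not tested. Between the heterozygous libraries alone, 5 of the 6 SINE subfamilies were called, and no others of the 114. The log2 differences ran from 1.09 for B1_Mus1 to 1.76 for B2_Mm1t. Between the wild-type libraries alone, only B2_Mm2 was called (1.06, SE 0.24, adjusted p = 0.0435 from limma), and the differences of the other 5 lay between 0.63 and 1.42 with adjusted p from 0.116 to 0.240. Without *Dnmt3l* wild-type replicate 1, B2_Mm1a was no longer called (log2 difference 1.37, adjusted p = 0.0716 from limma). Without *Pld6* heterozygous replicate 1, the library with many subfamilies at 0, all 6 were called, among 7 of all 114.

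**Figure D2:**
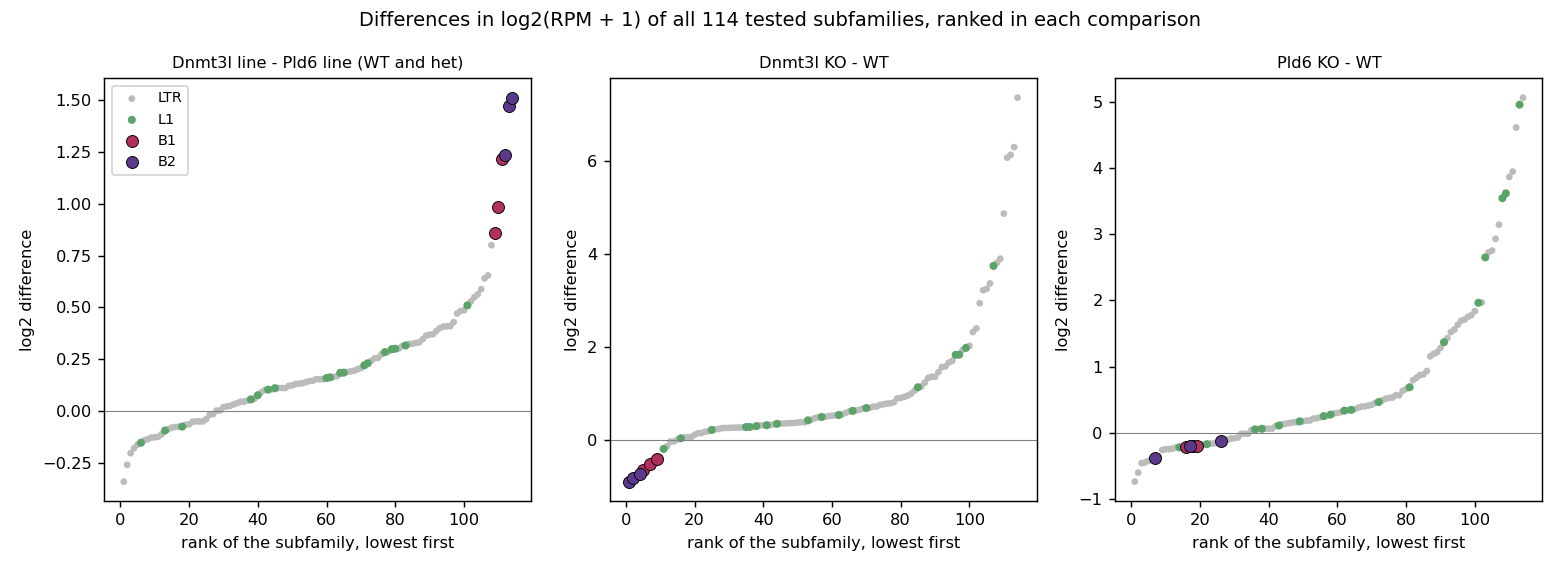
Difference in log2(RPM + 1) (y axis) of the 114 tested subfamilies, ranked from lowest to highest (x axis), for the line difference in controls, *Dnmt3l* KO against wild type and *Pld6* KO against wild type. The 3 B1 (red) and 3 B2 (purple) subfamilies hold the 6 highest ranks in the left panel. They lie among the 9 lowest ranks in the middle panel, and between ranks 7 and 26 in the right panel, among L1 (green) and LTR (grey) subfamilies.

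In *Dnmt3l* KO, the SINE subfamilies stood at the low end of all subfamilies. All 6 had lower means in *Dnmt3l* KO than in *Dnmt3l* wild type, at 0.532 to 0.741 of the wild-type mean, and B2_Mm2 passed the threshold. Of the 114 subfamilies, 2 were called lower (1.75%), B2_Mm2 and the LTR element MMERVK10D3_I, while 44 were called higher (38.6%). None of those called higher was SINE. The *Dnmt3l* wild-type libraries enter both this comparison and the line difference, so that the results are not independent of each other.

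B2_Mm2 was at 141, 116 and 119 RPM in *Dnmt3l* KO against 255 and 189 RPM in wild type. It fell by 0.81 on the log2 scale (SE 0.24, 95% interval -1.32 to -0.30, adjusted p = 0.013 from limma). B2_Mm1a was at 622, 611 and 569 RPM in KO, close together and below both wild-type libraries. Its log2 difference of -0.90 was the lowest of all 114 subfamilies, but with an SE of 0.51 the adjusted p was 0.181 (limma). B2_Mm1t was at 301, 245 and 233 RPM in KO, with a log2 difference of -0.74 (SE 0.40, adjusted p = 0.163 from limma).

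Among the B1 subfamilies, B1_Mm was at 132, 104 and 110.05 RPM in *Dnmt3l* KO. Its highest KO library was just under the lower wild-type library of 139 RPM, and its log2 difference was -0.65 (SE 0.27, adjusted p = 0.0593 from limma). B1_Mus1 was at 117, 93.0 and 104 RPM in KO, and the highest of these came within 2 RPM of the lower wild-type library at 118 RPM. Its log2 difference was -0.42 (SE 0.20, adjusted p = 0.111 from limma). B1_Mus2 was at 94.8, 72.3 and 80.0 RPM in KO, with a log2 difference of -0.51 (SE 0.22, adjusted p = 0.0743 from limma).

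In all 6 subfamilies the KO and wild-type ranges of the *Dnmt3l* line did not overlap. Over all tested subfamilies, 9 of 114 (7.89%) lay below wild type without overlap, and the other 3 were MMERVK10D3_I, MMERVK10D3_LTR and RLTR13D2. The median difference was -0.69 over SINE, -0.51 over B1, -0.81 over B2 and 0.50 over all 114. For L1 the median was 0.46, with 6 of 18 subfamilies called higher. As a reference for the elements that rose, the internal region of IAPEz, IAPEz-int, rose by 6.31 on the log2 scale (SE 0.37, adjusted p = 9.3e-11 from limma).

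How many SINE subfamilies were called lower in *Dnmt3l* KO rested on the 2 wild-type libraries and on the scaling. Without wild-type replicate 1, the higher of the 2, no SINE subfamily was called and B2_Mm2 was at -0.60 (adjusted p = 0.152 from limma), with 0 of the 6 at an unadjusted p under 0.05. Without replicate 2 the 6 log2 differences ran from -1.10 for B2_Mm1a to -0.65 for B1_Mus1, and without replicate 1 from -0.69 to -0.18. Either way 1 wild-type library was left. With the 3 heterozygous libraries as controls instead, 5 were called, all but B2_Mm1a, and the log2 difference of B2_Mm2 was -0.94 (adjusted p = 0.00143 from limma). Rescaling of the libraries by median ratios lowered the median of all 114 from 0.50 to -0.02. After that rescaling all 6 SINE subfamilies were called lower, among 9 of all 114. The factors, taken over retrotransposon subfamilies only, were 1.24 to 1.44 in *Dnmt3l* KO and 0.84 to 0.87 in wild type. Dividing by them lowered every KO value and raised every wild-type value. On that scale a fall of SINE cannot be told apart from a rise of the reference subfamilies.

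**Figure D3:**
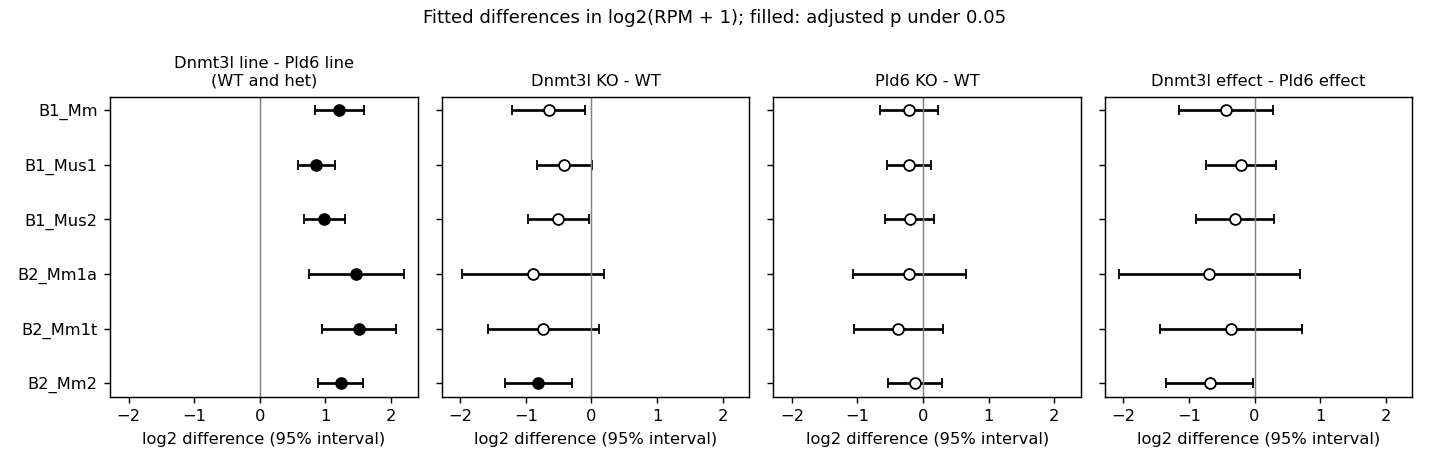
Fitted difference in log2(RPM + 1) (x axis) with its 95% interval for each SINE subfamily (y axis) in 4 comparisons. Filled circles have an adjusted p under 0.05 (limma). All 6 are filled and above 0 for the line difference, only B2_Mm2 is filled in *Dnmt3l* KO against wild type, at -0.81, and none is filled in *Pld6* KO against wild type or in the difference between the mutants.

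In *Pld6* KO, SINE lay near wild type, with differences within the spread between libraries. None of the 6 was called and none had an unadjusted p under 0.05 (limma), while 35 of the 114 subfamilies were called (30.7%), all of them higher. The 6 log2 differences lay between -0.38 and -0.12, with a median of -0.21 against 0.26 over all 114. L1, whose RNAs are a target of piRNAs, had 7 of 18 subfamilies called higher. L1Md_A_5end, the promoter end of L1Md_A, rose by 4.96 on the log2 scale (SE 0.36, adjusted p = 8.7e-10 from limma).

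The 3 B1 subfamilies of the *Pld6* KO libraries lay close together. B1_Mus1 was at 76.9, 73.7, 72.8, 85.7 and 80.2 RPM in KO, within the range of the 6 controls of the line. Its log2 difference was -0.21, with a 95% interval from -0.54 to 0.13. B1_Mus2 was at 57.5, 62.25, 57.7, 71.7 and 56.7 RPM and B1_Mm at 82.65, 75.65, 66.5, 104 and 74.1 RPM. Replicate 4 was the highest of the 5 for each of the 3. The intervals of these differences ran from -0.58 to 0.17 for B1_Mus2 and from -0.66 to 0.23 for B1_Mm.

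The B2 subfamilies varied far more among the same 5 KO libraries. B2_Mm1a was at 388, 198, 503, 857 and 183 RPM, a 4.69-fold range that enclosed all *Pld6* controls. Replicate 4 was the highest and replicates 2 and 5 were the lowest. B2_Mm1t was at 148, 74.3, 170.4, 268 and 98.9 RPM, with the same libraries at either end, and B2_Mm2 at 91.05, 78.7, 105, 142 and 74.9 RPM. Their log2 differences from wild type were -0.21 for B2_Mm1a (95% interval -1.07 to 0.66), -0.38 for B2_Mm1t (-1.05 to 0.30) and -0.12 for B2_Mm2 (-0.54 to 0.29).

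Rescaling by median ratios changed the calls in the *Pld6* line as well. It lowered the median of all 114 from 0.26 to -0.14, and 5 SINE subfamilies were then called lower, all but B2_Mm1a. On that scale 16 of all 114 subfamilies were called lower. The factors by which libraries were divided were 1.09 to 1.34 in *Pld6* KO and 0.76 to 0.95 in *Pld6* wild type. The log2 difference of B1_Mus1 was -0.72 on that scale (adjusted p = 0.0007 from limma). With heterozygous controls in place of wild type, B1_Mm, B1_Mus1, B1_Mus2 and B2_Mm2 turned to differences just above 0, from 0.07 to 0.13, and none was called.

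Between heterozygous and wild-type mice no SINE subfamily was called. In the *Dnmt3l* line the 6 log2 differences were all above 0, from 0.08 for B2_Mm1a to 0.27 for B2_Mm1t. In the *Pld6* line they were all below 0, from -0.34 for B1_Mus2 to -0.02 for B2_Mm1a. No subfamily of the 114 was called in either line (0%), and no SINE subfamily had an unadjusted p under 0.05 (limma). Over all 114, the count at an unadjusted p under 0.05 was 0 in the *Dnmt3l* line and 5 in the *Pld6* line.

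Whether the 2 mutations acted differently on SINE was tested as the difference between the KO effects. It was below 0 for all 6 subfamilies, from -0.69 for B2_Mm1a to -0.21 for B1_Mus1, but none was called, while 14 of 114 subfamilies were (12.3%). B2_Mm2 alone had an unadjusted p under 0.05 (log2 difference -0.69, SE 0.31, adjusted p = 0.174 from limma). With heterozygous controls, B1_Mm, B1_Mus2 and B2_Mm2 were called, at -0.94, -0.82 and -1.02. With these controls 10 of all 114 subfamilies were called below 0 and 11 above 0.

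For all 6 subfamilies the mean RPM of the KO groups was closer between the lines than that of either control group. The ratio of the mean B2_Mm1a RPM, *Dnmt3l* over *Pld6* line, was 2.48 in wild type, 2.82 in heterozygotes and 1.41 in KO. For B1_Mm it was 1.96, 2.80 and 1.43, and for B2_Mm2 it was 2.10, 2.67 and 1.27. B2_Mm1t was called higher in *Dnmt3l* KO than in *Pld6* KO (log2 difference 0.90, SE 0.32, adjusted p = 0.0408 from limma), against 28 of all 114 subfamilies (24.6%). The ranges of this subfamily overlapped, since *Pld6* KO replicate 4 was at 268 RPM. Without overlap, 36 of 114 subfamilies were higher in *Dnmt3l* KO (31.6%), of which 2 were SINE, B1_Mus1 and B1_Mus2, and these were not called (adjusted p = 0.052 and 0.0777 from limma). Without *Pld6* KO replicate 4, 5 SINE subfamilies were called, all but B1_Mus2, among 28 of all 114 called higher. With any 1 of the 3 *Dnmt3l* KO libraries or *Pld6* KO replicate 1, 2 or 5 left out, none was called.

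The means of the 6 groups stood in nearly the same order for every SINE subfamily. From highest to lowest it was *Dnmt3l* heterozygotes, *Dnmt3l* wild type, *Dnmt3l* KO, *Pld6* wild type, *Pld6* KO and *Pld6* heterozygotes. For B2_Mm1t the last groups changed places, with *Pld6* KO at 152 and *Pld6* heterozygotes at 153 RPM. Of the neighbours in this order, only *Dnmt3l* wild type and *Dnmt3l* KO had ranges that did not overlap, and this held for all 6 subfamilies. *Dnmt3l* KO was 1.15 to 1.39 times the mean of *Pld6* wild type, with overlapping ranges throughout.

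The balance of B2 to B1 varied between libraries as well. The ratio of summed B2 to summed B1 RPM was 3.79 and 4.30 in *Dnmt3l* wild type, 3.45, 4.19 and 4.17 in heterozygotes and 3.09, 3.61 and 3.13 in KO. Every *Dnmt3l* KO library was thus below both wild-type libraries of its line, and the mean went from 4.05 ± 0.36 (n = 2) to 3.28 ± 0.29 (n = 3). The KO range overlapped that of the heterozygotes, with a KO library at 3.61 above a heterozygous library at 3.45. In the *Pld6* line it was 3.53, 2.73 and 2.24 in wild type, 4.44, 2.46 and 3.13 in heterozygotes and 2.89, 1.66, 3.95, 4.85 and 1.69 in KO. *Pld6* KO libraries thus held both the lowest and the highest ratio of all 19. Across these 5 libraries the coefficient of variation was 11.2% for summed B1 and 55.8% for summed B2.

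**Figure D4:**
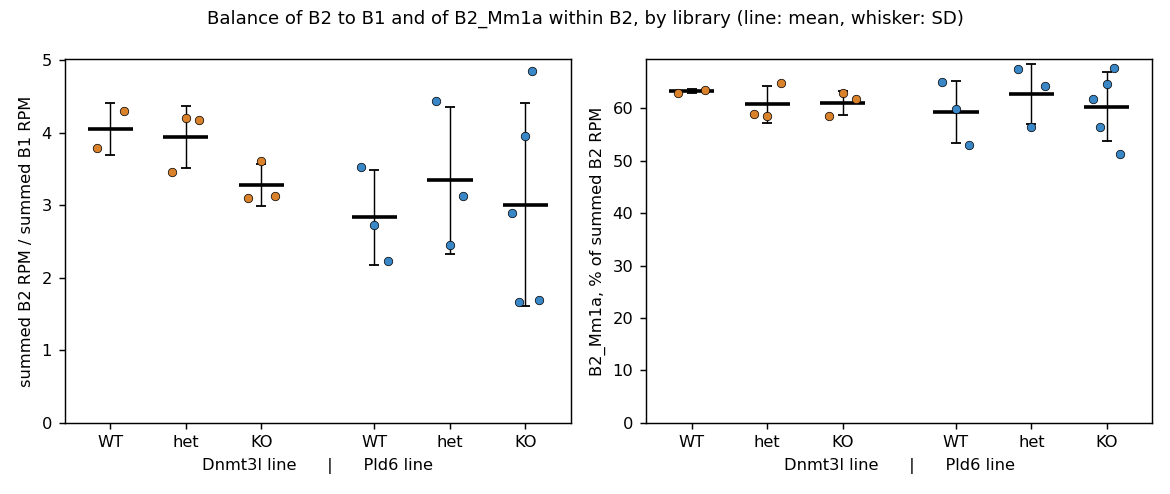
Summed B2 RPM over summed B1 RPM (left, y axis from 0) and the share of B2_Mm1a in summed B2 RPM in percent (right, y axis from 0) in the 19 libraries by group, *Dnmt3l* line in orange and *Pld6* line in blue. Points are libraries, horizontal lines are means and whiskers are ± 1 SD. The ratio spans 1.66 to 4.85 in *Pld6* KO and 3.09 to 3.61 in *Dnmt3l* KO, while the share of B2_Mm1a stays between 51.2% and 67.6% in all 19 libraries.

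Within B2, the share of B2_Mm1a varied less between the libraries of each group than summed B2 did. This did not hold for ratios between members in every group. In *Pld6* heterozygotes B2_Mm1a to B2_Mm2 spanned 1.68-fold, against 1.38-fold for summed B2. B2_Mm1a made up 63.2% ± 0.37 of summed B2 RPM in *Dnmt3l* wild type, 61.1% ± 2.28 in *Dnmt3l* KO, 59.3% ± 5.99 in *Pld6* wild type and 60.4% ± 6.55 in *Pld6* KO (SD, n = 2, 3, 3 and 5). The lowest share, 51.2%, was in *Pld6* KO replicate 5 and the highest, 67.6%, in *Pld6* KO replicate 4. The ratio of B2_Mm1a to B2_Mm2 had a wider span in the same libraries, from 2.44 in replicate 5 to 6.03 in replicate 4. In *Dnmt3l* wild type it was 5.06 and 5.13.

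Within B1, the ratio of B1_Mm to B1_Mus1 was 1.43 and 1.17 in *Dnmt3l* wild type and between 1.25 and 1.35 in *Dnmt3l* heterozygotes. In *Dnmt3l* KO it was lower than in all 5 controls of the line, between 1.06 and 1.13. In the *Pld6* groups the means were 1.04 ± 0.17 in wild type (n = 3), 0.996 ± 0.040 in heterozygotes (n = 3) and 1.03 ± 0.12 in KO (n = 5). The ratio of B1_Mus2 to B1_Mus1 stayed between 0.707 and 0.864 in all 19 libraries.

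Across the 19 libraries the subfamilies of an element moved together. As a description, Pearson's r of log2(RPM + 1) was 0.983 to 0.991 between pairs of B1 subfamilies, 0.924 to 0.965 between pairs of B2 subfamilies and 0.783 to 0.957 between a B1 and a B2 subfamily. After each group's mean was subtracted, r was 0.908 to 0.949 within B1 and 0.875 to 0.926 within B2, but 0.294 to 0.762 between the elements. The values of a library share its depth and scaling, and reads from similar subfamilies may have been assigned to either consensus.

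Without group means subtracted, no subfamily outside SINE followed them as closely. RLTR45-int, the internal region of an ERVK element, had the highest r with summed B1 over the 19 libraries (0.665), and RLTR13B3 (0.584), RLTR13D2 (0.530), ERVB4_1-I_MM (0.461) and RLTR13D3A1 (0.461) came next. The median r of the 108 tested subfamilies outside SINE with summed B1 was -0.004. For summed B2 the 5 highest were ETnERV3 (0.445), RLTR45-int (0.419), RLTR13D2 (0.272), ERVB4_2-I_MM (0.264) and RLTR13B3 (0.245). All of them are ERVK elements with group means of at most 7.05 RPM. RLTR45-int was at a mean of 7.05 RPM in *Dnmt3l* wild type and 4.60 RPM in *Pld6* wild type. With group means subtracted its r was 0.261 with summed B1 and -0.237 with summed B2. On the same basis r with summed B1 was 0.364 for RLTR13D3A1, 0.327 for ERVB4_1-I_MM, 0.326 for RLTR13B3 and 0.122 for RLTR13D2. All of these but RLTR13D2 lay above the lowest such r between a B1 and a B2 subfamily, 0.294.

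The share of SINE in the retrotransposon RPM was lower in both mutants, where the RPM outside SINE was higher. Outside SINE the summed RPM was 12059 ± 1160 in *Dnmt3l* KO (n = 3) and 6841 ± 745 in *Pld6* KO (n = 5), and SINE was at 1288 ± 104 and 896 ± 396 RPM. The share of SINE was 9.72% ± 1.40 in *Dnmt3l* KO and 11.7% ± 5.70 in *Pld6* KO. Within *Pld6* KO it ranged from 7.01% in replicate 2 to 21.3% in replicate 4, which had the most SINE RPM of the 5 (1529) and the least RPM outside SINE (5649).

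**Figure D5:**
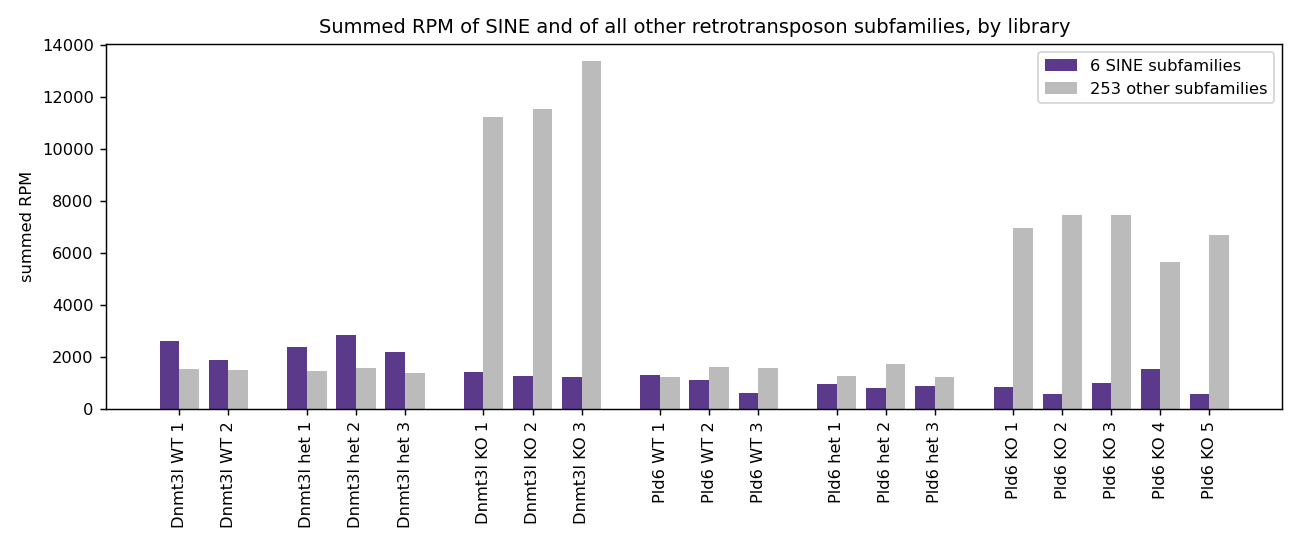
Summed RPM (y axis, linear from 0) of the 6 SINE subfamilies (purple) and of the 253 other subfamilies (grey) in each of the 19 libraries (x axis). The grey bars lie between 1213 and 1699 RPM in the 11 wild-type and heterozygous libraries and between 5649 and 13388 RPM in the 8 KO libraries, while the purple bars do not exceed the 2846 RPM of *Dnmt3l* heterozygous replicate 2.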

How the data were processed

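For each of 19 libraries the authors mapped reads of 50 bases, single-end, from directional poly(A) libraries onto retrotransposon consensus sequences with hisat2. They deposited RPM, the reads of a subfamily normalized to mapped reads, for 259 subfamilies. The submitters' processing notes also name Trim Galore and mm10. The reads counted in that total, strand use, hisat2 settings and the treatment of reads that match several consensus sequences are not given in the sources used here. Reads shared by similar subfamilies may thus be split in an unknown way. RPM was deposited to 2 decimals and low values did not fall on multiples of a common step in every library, so that whole reads were not recovered, depth is unknown and no count model was used. Consensus sequences of B1 and B2 were not used here.

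Groups followed the sample labels. The methods text gives the numbers of *Dnmt3l* wild-type and heterozygous mice the other way round. Which of the sources is right could not be settled here. The fit of log2(RPM + 1) used limma 3.58.1 under R 4.3.3 (lmFit, eBayes with a mean-variance trend, 6 groups, no covariates) for the 114 subfamilies that reached an RPM of 1 in 2 or more libraries. The code was tried on simulated data with larger differences than those of SINE and values independent between subfamilies. That does not show its power or error for the SINE differences. The pseudocount keeps differences of low subfamilies small, but SINE lay far above it. The line difference was the mean of the wild-type and the heterozygous differences. Alternatives changed the pseudocount (0.1, 0.5), the filter (no filter, or a mean RPM of 5 or more), the scaling (division of a library by its median ratio over the 33 subfamilies that reached an RPM of 5 everywhere, or over 27 without SINE), the controls, the libraries fitted, the limma settings and a block on replicate number, or left out each library in turn. Summed RPM and ratios are given without a test. A permutation test had been planned for them, and it was dropped after its results were seen, because sums over chosen members are described and not tested. Named subfamilies were the 6 SINE members, the 5 tested subfamilies most correlated with summed B1 and with summed B2, and reference L1 and IAP elements. Others were named after their values were seen, for not overlapping between groups or for being called. The members and lists were chosen with earlier results of these data known. Python 3.11.15, numpy 2.4.6, pandas 2.3.3 and matplotlib 3.10.9 were used for the other steps.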

Additional observations from a re-analysis of the deposited data

How the results depend on the processing

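The line difference was called for all 6 SINE subfamilies in 11 of the 13 other settings, the exceptions being wild-type libraries alone (1 called) and heterozygous libraries alone (5). Without single libraries the count was 5 to 6. Over all tested subfamilies, the line difference was called for 8 of 62 with a mean RPM of at least 5. Of 114, it was called for 9 with array weights and 8 without the mean-variance trend. It was called for 7 with a pseudocount of 0.1, rescaling without SINE, robust eBayes or the replicate block. Without *Pld6* heterozygous replicates 1, 2 and 3 in turn it was called for 7, 10 and 8 of 114. No other setting gave a call outside SINE. In *Dnmt3l* KO against wild type, where 1 was called, 3 were with a mean RPM of at least 5 or the groups compared alone, 5 with heterozygous or with pooled controls, and 6 with either rescaling or with array weights. With any 1 of the *Dnmt3l* KO libraries left out the count was 1, among 2 of all 114 called lower. With 1 wild-type library left, the log2 difference of B2_Mm2 was -0.595 or -1.025. Over all 114 subfamilies, *Dnmt3l* KO had 9 called lower with rescaling by median ratios, 15 with rescaling without SINE and 9 with array weights. It had 6 with heterozygous or pooled controls, 5 with the groups alone and 4 of 62 with a mean RPM of at least 5. In *Pld6* KO against wild type, 5 SINE subfamilies were called after either rescaling and 0 otherwise. Over all 114, the rescalings gave 16 and 24 called lower. For the difference between the mutants, 3 SINE subfamilies were called with heterozygous and 1 with pooled controls, among 10 and 8 of all 114 called below 0. In *Dnmt3l* KO against *Pld6* KO, 0 were called with a pseudocount of 0.1, without the filter or with either rescaling, 2 with a mean RPM of at least 5, 3 with the groups alone and 5 with array weights. Without single libraries the count was 0 to 5. Over all subfamilies, *Dnmt3l* KO against *Pld6* KO had 18 of 62 called higher with a mean RPM of at least 5. The groups alone gave 32 of 114 and array weights 59 of 114. The causes were not tested.

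Same-numbered libraries deviated together in 9 of 16 pairs (correlation over 0.1, median 0.12), and differently numbered ones in 11 of 44 (median -0.03). This does not settle whether the numbers pair the mice, and the main fit did not use them. A block on the replicate number gave 2 calls in *Dnmt3l* KO against *Pld6* KO (B1_Mm 0.61 and B2_Mm1t 1.06) and left 6 for the line difference, 1 in *Dnmt3l* KO and 0 in *Pld6* KO.

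Reversed differences were all uncalled. In *Pld6* KO with heterozygous controls, B1_Mm was at 0.12, B1_Mus1 at 0.074, B1_Mus2 at 0.13 and B2_Mm2 at 0.08. In *Pld6* heterozygotes, B2_Mm1a was at 0.13 with rescaling by median ratios, 0.10 with rescaling without SINE and 0.11 with array weights. Without single libraries, the log2 difference ran from -0.65 to 0.12 for B2_Mm1a in *Pld6* KO and from -0.45 to 0.31 for B2_Mm1a in *Pld6* heterozygotes. In *Dnmt3l* heterozygotes it ran from -0.20 to 0.55 for B1_Mm, -0.055 to 0.41 for B1_Mus1, -0.082 to 0.45 for B1_Mus2, -0.13 to 0.28 for B2_Mm1a and -0.08 to 0.35 for B2_Mm2. For the difference between the mutants it ran from -0.44 to 0.026 for B1_Mus1.

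With the rescaling by median ratios and the rescaling without SINE, the log2 difference of summed B1 in *Dnmt3l* KO was -1.21 and -1.41, against -0.54 as deposited, and that of summed B2 -1.52 and -1.71, against -0.85. Without single libraries these ran from -0.84 to -0.24 and from -1.06 to -0.63. For summed B1 in *Pld6* KO the rescalings gave -0.73 and -0.88 and heterozygous controls 0.11, against -0.21. For summed B1 in *Dnmt3l* KO against *Pld6* KO, rescaling by median ratios gave 0.27, against 0.46. Without single libraries, summed B1 in *Dnmt3l* heterozygotes ran from -0.12 to 0.48. Depth is unknown, so that its limit on these values could not be set.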
